A study of Mus musculus with 6 samples.

Results

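The glutathione and glucuronide conjugating enzymes described here are 44 genes chosen by symbol from a list of glutathione S-transferases (GSTs), UDP-glucuronosyltransferases (UGTs) and related enzymes. Each symbol was looked up in the expression table and linked by gene identifier to the read counts, and all 44 were found among the 47729 genes counted. They comprise 22 GST genes, 14 UGT genes and 8 others, namely 2 epoxide hydrolases, 4 further transferases and 2 flavin-containing monooxygenases. The rule goes by symbol and not by a measured value, but the list was chosen with earlier results of these data known. RNA came from livers of C57BL/6 mice after 17 days on a diet holding 0.1% DDC, a liver toxicant that blocks heme synthesis and causes porphyrin deposits and cholestasis. The knockdown group held 3 libraries labelled as Atoh8 knockdown and named shAtoh8 in the design, which reduces the basic helix-loop-helix transcription factor Atoh8 by a short hairpin RNA. The control group held 3 libraries titled WT but named shNC, a control hairpin, in the design, so the labels differ on whether the controls carried a hairpin. Strain, diet and time were shared by both groups. Age, sex, the promoter of the hairpin and its way of delivery are not given in the sources used here. Whether the 3 replicates of a group are 3 animals is not given either, and the p-values then measure the spread between libraries, which may be technical.

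GSTs join the tripeptide glutathione to reactive electrophiles, and soluble classes (alpha, mu, pi, theta, kappa, omega, zeta) and membrane-bound forms differ in their substrates. UGTs sit in the endoplasmic reticulum and attach glucuronic acid from UDP-glucuronate to bilirubin, steroids, bile acids, phenols and drugs, so that they can leave in bile or urine. Genes of the UGT1A family each have their own first exon and promoter and share all later exons, whereas UGT2 and GST mu genes lie in tandem as separate genes. Hepatocytes hold most of these enzymes in the liver, and many are set by nuclear receptors such as CAR and PXR, by the aryl hydrocarbon receptor and by the stress factor NRF2.

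Reads in genes came to between 36915731 and 37969644 in the knockdown libraries and between 31912058 and 36970491 in the control libraries. Control replicate 1 stood apart from all others. Its log2 counts correlated at 0.916 and 0.907 with control replicates 2 and 3, which correlated at 0.984 with each other (Pearson r across genes). Its difference from those controls followed GC content across 13729 genes (Spearman rho 0.644), as did, less closely, the difference of the knockdown libraries from the same controls (rho 0.355), so a comparison without control replicate 1 carries a GC trend too. Reads of Ddx3y on the Y chromosome numbered 292 in it, against 1157 to 1648 in the knockdown libraries and 3230 and 3389 in control replicates 2 and 3. Values are therefore also given without it, and with an offset for GC content and transcript length as well where that changed the call of one of the 44 genes. Atoh8 itself stood at 10.2, 9.83 and 5.64 CPM (reads of a gene per unit of library size, scaled by the TMM factors of edgeR) in knockdown replicates 1 to 3, against 63.8, 16.8 and 16.4 CPM in control replicates 1 to 3. The groups did not overlap, but the log2 fold change of -1.92 (SE 0.58) did not pass the edgeR quasi-likelihood test with Benjamini-Hochberg adjustment over all genes (adjusted p = 0.197). Leaving out control replicate 1 gave a fall by 0.95 that passed (edgeR adjusted p = 0.0115). Hepatocyte markers such as Alb were abundant in every library. Of 11 tested, 0 passed edgeR in either direction with all 6 libraries, with 2 at an unadjusted p under 0.05. However, 10 of the 11 had a negative log2 fold change, with a median of -0.59, and of -0.20 without control replicate 1. Without that library 0 passed as higher and 3 as lower (Ttr, Apob and Cps1), against 16.5% and 16.1% of all genes. With the GC offset as well 3 passed as lower, with a median of -0.38, against 20.3% and a median of -0.11 over all genes. Sums of the 11 hepatocyte markers, most of it Alb, were 113823 to 133836 CPM in the knockdown libraries and 125829 to 170191 CPM in the controls. Sums of 12 cholangiocyte markers were 374 to 607 CPM in the knockdown libraries and 63.7 to 69.7 CPM in the controls, most of it Spp1, while the defining keratins Krt7 and Krt19 had 0 to 15 reads in any library. Sums of 11 stellate and fibroblast markers were 348 to 505 CPM in the knockdown libraries and 213 to 263 CPM in the controls. Their sums in the authors' FPKM, a scale set out below, overlapped, at 106 to 161 against 58.6 to 107. Of the 11, 10 had a positive log2 fold change, and Rgs5, Lrat and Dcn were negative without control replicate 1 (-0.80, -0.17 and -0.17). From these 2 lists Spp1, Prom1 and Acta2 passed as higher with all 6 libraries (edgeR adjusted p = 0.00985, 0.0344 and 0.0282). Acta2 reached at most 1.26 CPM. Without control replicate 1, 7 of 11 stellate and fibroblast markers and 4 of 7 tested cholangiocyte markers passed as higher and 0 as lower. The shares of all genes were 16.5% and 16.1%. Macrophage marker sums were 615 to 722 CPM in the knockdown libraries, against 724 CPM in control replicate 1 and 385 and 355 CPM in control replicates 2 and 3. All 12 macrophage markers had a positive log2 fold change, and 0 passed with all 6 libraries. Without control replicate 1, 10 passed as higher, and 8 with the GC offset as well, against 16.5% and 12.3% of all genes. For all 12, every knockdown library was above control replicates 2 and 3, against 28.7% of all genes. Of 10 lymphocyte and neutrophil markers, 1 had enough reads to be tested and it did not pass. The part of other cell types in the results below was not tested, and in RNA taken from many cells together fewer cells of a type and less RNA per cell cannot be told apart.

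The levels of the 44 genes differed widely. On the FPKM scale, which divides by transcript length and so allows genes to be compared, 5 genes averaged at least 1000 over the 6 libraries, 26 at least 100, 40 at least 10 and 43 at least 1. The mu-class enzyme Gstm1 was highest at 5080.2 ± 228 FPKM in knockdown livers and 6299 ± 759 FPKM in control livers (SD, n = 3 each). The membrane-bound Mgst1 followed at 3539 ± 323 FPKM in knockdown livers and 5162 ± 646 FPKM in control livers. Both genes had lower values in every knockdown library than in any control library. Gstm3, Gstp1 and Gsta3 made up the rest of the highest 5, at 2122 ± 532, 1677 ± 145 and 1202 ± 106 FPKM in knockdown livers, against 2339.6 ± 907, 1459.5 ± 252 and 1658 ± 105 FPKM in control livers. Gstm3 and Gstp1, neighbours in this order, overlapped in their library values. The highest UGT gene was Ugt2b36, at rank 9. Mgst2, a membrane-bound enzyme linked to leukotriene synthesis, was lowest, with 5 to 7 reads in the knockdown libraries and 0 to 5 in the controls, and was too low to be tested. Reads of all 44 genes made up 2.11%, 1.98% and 2.46% of gene reads in knockdown replicates 1 to 3, against 1.93%, 2.36% and 2.84% in control replicates 1 to 3, so the groups overlapped in this share.

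**Figure D1:**
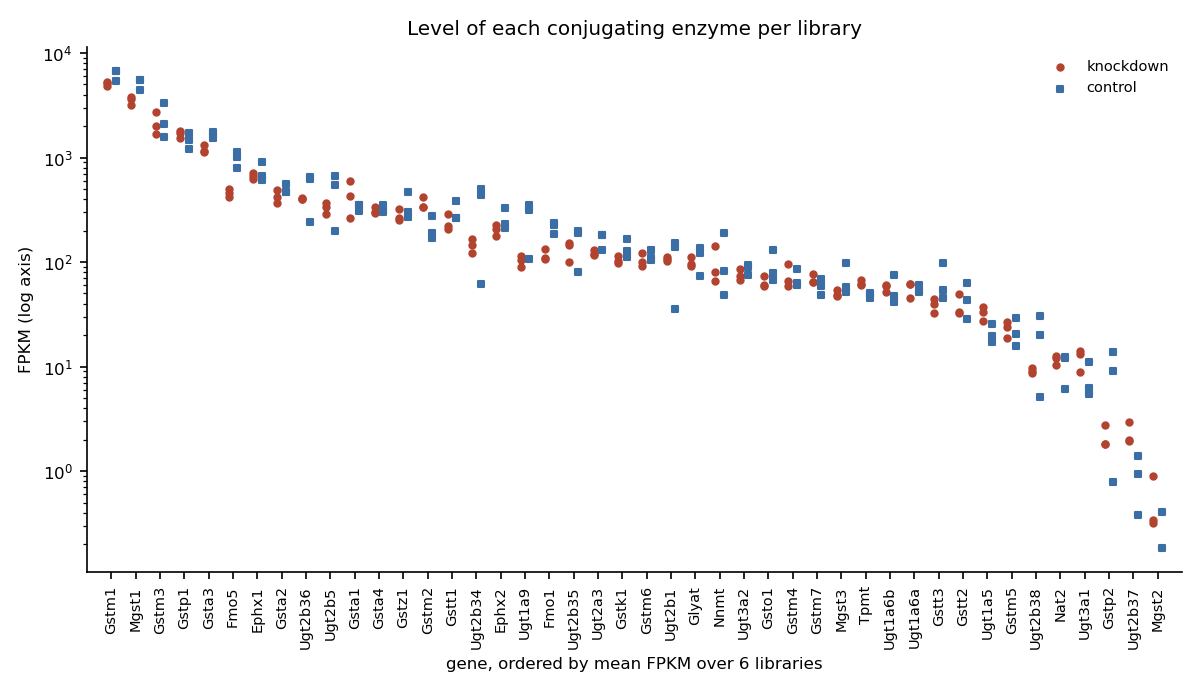
Level of each of the 44 genes in every library as FPKM on a log axis, with knockdown libraries as circles and control libraries as squares and genes ordered by their mean over the 6 libraries. Gstm1 and Mgst1 lead, and a control library lies far below the other control libraries for several Ugt2b genes and Ugt1a9.

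Promoters of 5 genes are shown, from UGT and GST genes whose values are described below and whose window lies before the annotated gene. Each is the 250 bases before the RefSeq start on GRCm38.p6, 5′ to 3′ on the strand of the gene. Capitals mark matches, on either strand, to the core of the antioxidant response element bound by NRF2 (TGACNNNGC), the core of the element bound by the aryl hydrocarbon receptor (GCGTG) or a TATA box (TATAAA).
Ugt1a9, chr1:88070529-88070778, plus strand: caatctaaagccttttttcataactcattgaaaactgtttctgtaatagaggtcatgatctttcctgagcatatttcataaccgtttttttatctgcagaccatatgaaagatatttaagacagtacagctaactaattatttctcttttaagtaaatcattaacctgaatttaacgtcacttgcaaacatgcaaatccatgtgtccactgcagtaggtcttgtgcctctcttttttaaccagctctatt
Ugt1a5, chr1:88165762-88166011, plus strand: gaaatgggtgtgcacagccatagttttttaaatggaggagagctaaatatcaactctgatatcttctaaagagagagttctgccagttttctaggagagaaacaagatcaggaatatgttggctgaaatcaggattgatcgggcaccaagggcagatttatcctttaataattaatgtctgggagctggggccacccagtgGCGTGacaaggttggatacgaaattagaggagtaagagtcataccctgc
Ugt2b34, chr5:86906938-86907187, minus strand: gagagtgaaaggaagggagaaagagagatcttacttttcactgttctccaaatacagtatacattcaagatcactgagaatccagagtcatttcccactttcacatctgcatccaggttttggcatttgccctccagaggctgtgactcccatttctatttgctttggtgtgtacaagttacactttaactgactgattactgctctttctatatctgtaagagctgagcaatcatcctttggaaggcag
Gsta3, chr1:21240335-21240584, plus strand: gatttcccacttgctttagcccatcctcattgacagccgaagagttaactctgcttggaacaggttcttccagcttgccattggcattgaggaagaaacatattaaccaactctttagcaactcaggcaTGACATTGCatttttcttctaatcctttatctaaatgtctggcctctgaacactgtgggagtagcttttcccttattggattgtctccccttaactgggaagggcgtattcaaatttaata
Gstm1, chr3:108017974-108018223, minus strand: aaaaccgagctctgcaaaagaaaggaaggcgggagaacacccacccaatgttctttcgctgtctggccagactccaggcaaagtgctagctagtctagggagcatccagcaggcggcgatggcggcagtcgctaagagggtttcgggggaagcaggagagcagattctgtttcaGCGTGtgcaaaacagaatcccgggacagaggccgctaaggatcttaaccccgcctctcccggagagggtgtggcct
The Gsta3 window holds an antioxidant response element core, the Ugt1a5 and Gstm1 windows shown hold GCGTG, and none of these letters occur in the Ugt1a9 and Ugt2b34 windows. Another RefSeq window of Gstm1, which overlaps the annotated gene and is not shown, holds GCGTG and a TATA box. RefSeq promoters were matched for 36 of the 44 genes. These genes have 44 promoters in that table, of which 4 (9.09%) hold the antioxidant response element core (Gsta3, Gstm5, Gstm7 and Mgst1), 8 (18.2%) GCGTG and 7 (15.9%) the TATA box, against 10.2%, 28.2% and 12.4% of all 32851 RefSeq promoters of the same length. A match is a description of letters and no record of binding.

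With all 6 libraries, 0 of the 43 tested genes passed as higher and 0 as lower in knockdown livers (edgeR quasi-likelihood test, adjusted p under 0.05), against 0.741% and 0.123% of all 13767 genes tested. Unadjusted p-values were under 0.05 for 8 of the 43 and 2002 of all genes tested, and smallest among the 43 for Fmo5 (adjusted p = 0.112), and DESeq2 called 5 of them (2 higher, 3 lower), which is 11.6%, against 6.78% of all genes (4.62% higher, 2.16% lower). The log2 fold change was positive in 13 and negative in 30, with a median of -0.18, against -0.05 over all genes tested. By family the medians were -0.20 for GSTs, -0.19 for UGTs and -0.14 for the others, and with library size as the only scaling, which moves the median of all genes by 0.24, they were 0.04, 0.04 and 0.12. The medians without control replicate 1 were -0.17 for GSTs, -0.46 for UGTs and -0.01 for the others, against 0.01 over all genes, and with the GC offset as well -0.18, -0.04 and -0.07, against -0.11 over all genes. In CPM the 2 groups of libraries did not overlap for 7 genes that were lower in knockdown livers (Gsta3, Gstm1, Gstk1, Mgst1, Mgst3, Fmo1 and Fmo5) and 6 that were higher (Gstm2, Gstm7, Ugt1a5, Ugt2b37, Ugt3a1 and Tpmt). These are 16.3% and 14.0% of the 43, against 10.0% and 13.0% of all genes tested. In the authors' FPKM the groups did overlap for Gstk1, Mgst3, Gstm7 and Ugt3a1.

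The calls depended on control replicate 1. It lay below all 5 other libraries for 18 of the 43 genes (41.9%, against 33.0% of all genes) and above all of them for 12 (27.9%, against 32.5%). Among UGT genes it was lowest in 10 of 14, with a median log2 difference of -1.36 from control replicates 2 and 3, and among GSTs the median difference was 0.16. UGT genes also had a lower median GC content, at 40.9%, than GST genes, at 50.9%, and all tested genes, at 49.5%. The part of GC content in these differences was not tested beyond the offset named next. Without that library 15 genes passed (34.9%, against 32.6% of all 14222 genes tested), 4 higher and 11 lower, which is 9.30% and 25.6% of the 43, against 16.5% and 16.1% of all genes. The remaining 5 libraries did not overlap for 18 genes lower and 7 higher in knockdown livers, against 29.9% and 28.7% of all genes. The 4 that rose were Gstm2, Ugt1a5, Ugt2b37 and Ugt3a1. The 11 that fell were Gsta3, Gstp2, Mgst1, Ugt1a9, Ugt2a3, Ugt2b5, Ugt2b34, Ugt2b36, Ugt2b38, Fmo1 and Fmo5. With an offset for GC content and transcript length as well, 13 passed (30.2%, against 32.6% of all genes), 5 higher and 8 lower (11.6% and 18.6%, against 12.3% and 20.3% of all genes), and 10 of these were among the 15 with the same direction. Those 10 were Ugt1a5, Ugt2b37 and Ugt3a1 as higher and Gstp2, Mgst1, Ugt1a9, Ugt2b34, Ugt2b38, Fmo1 and Fmo5 as lower. The other 3 were Tpmt and Nat2 as higher and Gstk1 as lower. Limma-voom with a quality weight for each library, a fit that keeps all 6, called 16 of the 43, against 37.0% of all genes.

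**Figure D2:**
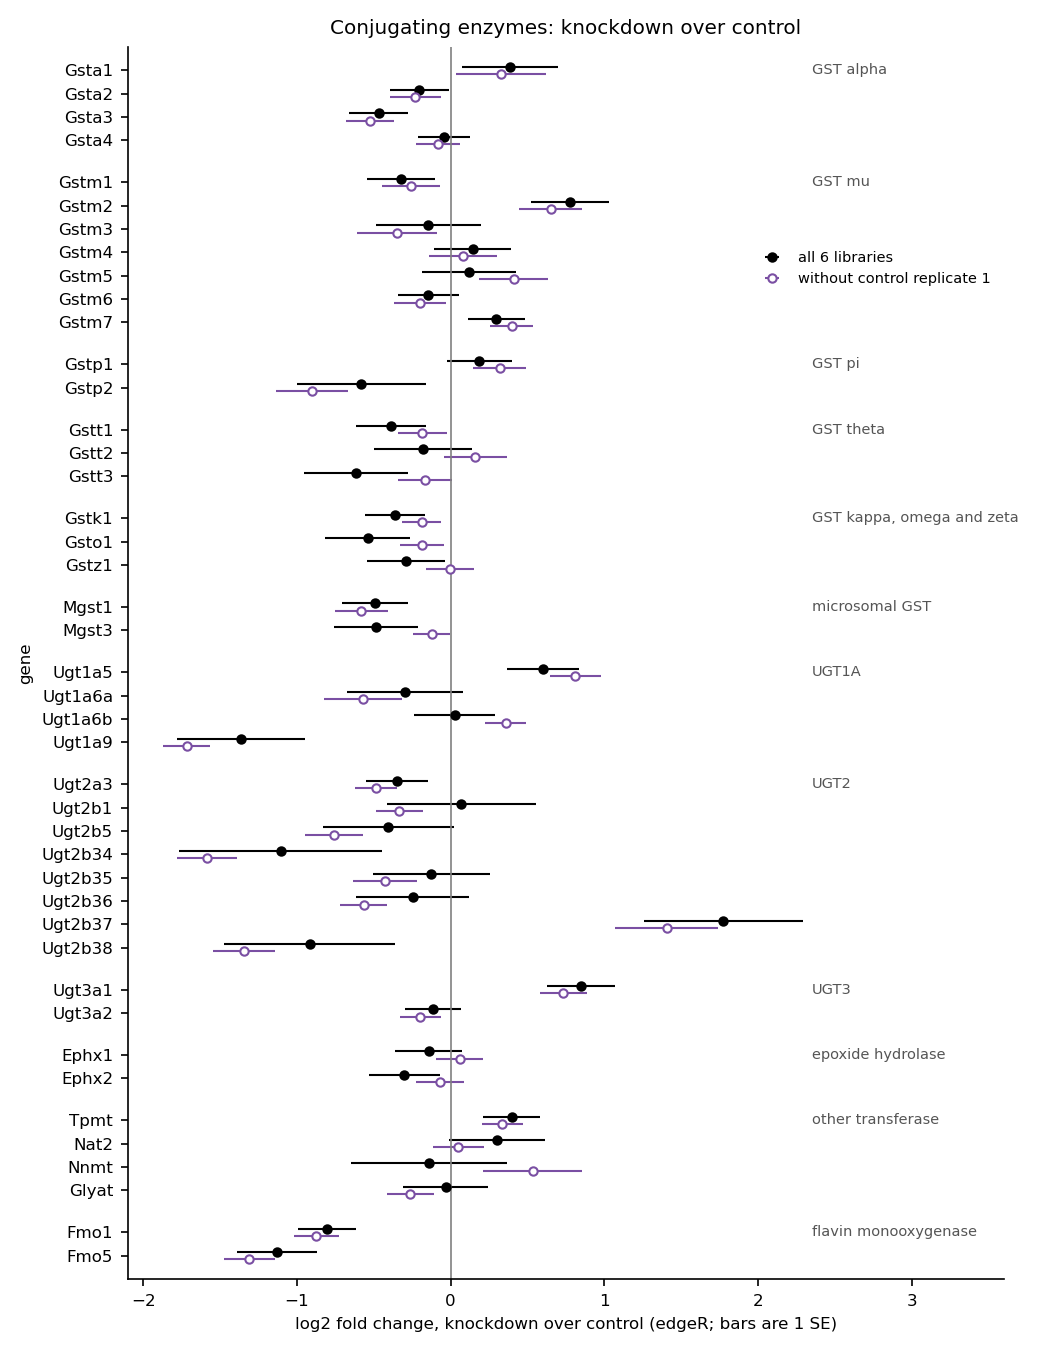
Log2 fold change of each tested gene, knockdown over control, from edgeR, with bars of 1 SE. Filled points use all 6 libraries and open points leave out control replicate 1. Fmo5, Fmo1 and Ugt1a9 lie left of 0 and Ugt2b37, Ugt3a1, Gstm2 and Ugt1a5 right of 0 in both fits, while most GST genes lie closer to 0.

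**Figure D3:**
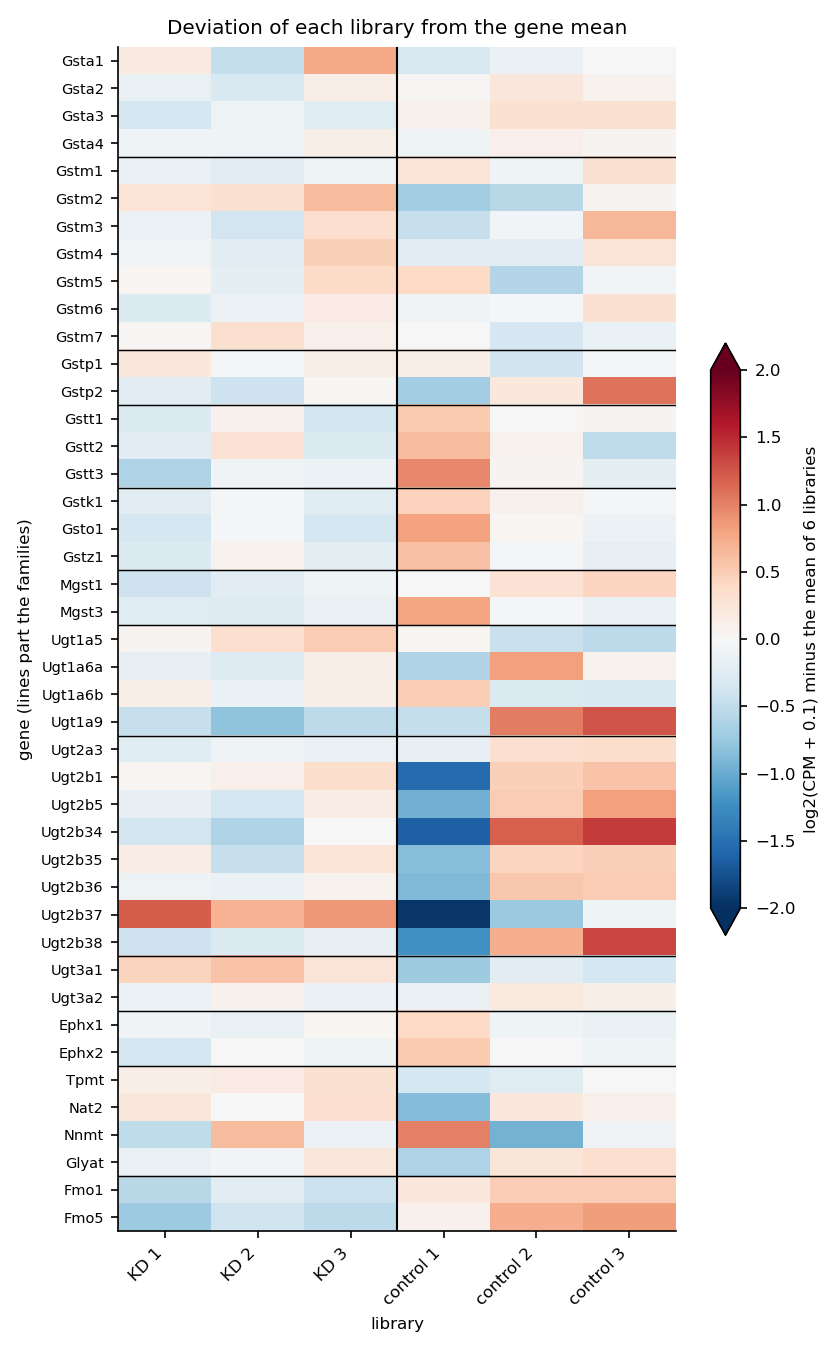
Deviation of each library from the gene's mean on the log2(CPM + 0.1) scale, with knockdown libraries (KD 1 to 3) left of the control libraries. Control replicate 1 is below the other libraries for most UGT2 genes and above them for theta, kappa, omega and zeta GSTs.

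Alpha-class GSTs act on lipid peroxidation products and drugs, and mouse Gsta3 detoxifies the epoxide of aflatoxin. Gsta3 (ENSMUSG00000025934, GRCm38 chromosome 1, 21240589 to 21265661, plus strand) stood at 1036, 1225 and 1115 CPM in knockdown replicates 1 to 3, against 1397, 1638 and 1634 CPM in control replicates 1 to 3. Every knockdown library was below every control library, for a log2 fold change of -0.47 (SE 0.19) that did not pass (edgeR adjusted p = 0.320). Without control replicate 1 it fell by 0.53 (edgeR adjusted p = 0.0265), and with the GC offset as well the value was -0.18 (adjusted p = 0.405). Gsta4, which prefers the lipid aldehyde 4-hydroxynonenal, was at 311 ± 19.8 FPKM in knockdown livers and 322 ± 24.3 FPKM in control livers (SD, n = 3 each). Gsta1 and Gsta2 overlapped between groups, at 426 ± 164 and 424 ± 57.9 FPKM in knockdown livers, against 336 ± 21.9 and 495 ± 51.0 FPKM in control livers. Of the 50-base windows in the transcripts of Gsta1, 90.5% also occur in another gene, and of those in Gsta2, 49.8%, so their split is uncertain. Gsta1 reads per Gsta2 read overlapped, at 0.571 to 1.00 in knockdown libraries and 0.506 to 0.609 in control libraries. Gsta1, Gsta2 and Gsta4 had log2 values of 0.33, -0.23 and -0.08 without control replicate 1, and none passed (edgeR adjusted p between 0.325 and 0.693).

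The 7 mu-class genes lie side by side on chromosome 3 and differed in direction, 4 positive and 3 negative. Gstm2 (ENSMUSG00000040562, chromosome 3, 107981702 to 107986453, minus strand) stood at 282, 289 and 364 CPM in knockdown replicates 1 to 3, against 144, 159 and 243 CPM in control replicates 1 to 3. All knockdown libraries were above all controls, with a log2 fold change of 0.78 (SE 0.25, edgeR adjusted p = 0.220). Without control replicate 1 it rose by 0.65 (edgeR adjusted p = 0.0356), and the GC offset ended that call (0.52, adjusted p = 0.0703). Gstm1 (ENSMUSG00000058135, chromosome 3, 108012255 to 108017973, minus strand), the next gene in the cluster, stood at 5707, 5372 and 5836 CPM in knockdown replicates 1 to 3, against 7519.7, 5898 and 7718 CPM in control replicates 1 to 3. The groups were apart by a narrow gap, and the log2 fold change of -0.32 (SE 0.22) did not pass (edgeR adjusted p = 0.574), nor did the value of -0.26 without control replicate 1 (adjusted p = 0.322). Gstm2 reads per Gstm1 read were 0.0494, 0.0538 and 0.0624 in knockdown replicates 1 to 3, against 0.0192, 0.0270 and 0.0314 in control replicates 1 to 3. This within-library ratio does not depend on the scaling, and its groups did not overlap, control replicate 1 included. Here and in the ratios below, the genes were partly named for their values, so a gap is no separate support. Gstm7 was at 64.0, 78.8 and 67.3 CPM in knockdown replicates 1 to 3, against 63.5, 49.8 and 57.5 CPM in control replicates 1 to 3, a gap that is small beside the spread of either group. Gstm3, Gstm4, Gstm5 and Gstm6 overlapped, with log2 fold changes between -0.14 and 0.14, and between -0.35 and 0.41 without control replicate 1, where neither they nor Gstm7 passed (0.40, edgeR adjusted p = 0.0515). Gstm3 spread widely, from 1795 to 2949 CPM in knockdown libraries and from 1690.1 to 3689 CPM in control libraries, and 28.8% of its windows occur in another gene.

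Pi-class GSTs are abundant in male mouse liver and conjugate small electrophiles. Gstp1 (chromosome 19, 4035407 to 4037985, minus strand) was at 988, 840.1 and 938 CPM in knockdown replicates 1 to 3, against 937, 649 and 843 CPM in control replicates 1 to 3. The groups overlapped, and the log2 fold change was 0.19 (SE 0.21, edgeR adjusted p = 0.735), and 0.32 without control replicate 1 (adjusted p = 0.181). Its neighbour Gstp2 was at 17.5, 15.2 and 20.7 CPM in knockdown replicates 1 to 3, against 12.6, 23.7 and 43.5 CPM in control replicates 1 to 3, for a log2 fold change of -0.58 (SE 0.42, edgeR adjusted p = 0.596). Control replicate 1 was lowest of all, and without it Gstp2 fell by 0.90 (edgeR adjusted p = 0.0158). Of its windows 54.3% occur in another gene, most of them in Gstp1, and the authors' FPKM of 1.80, 1.83 and 2.79 in knockdown libraries and 0.780, 9.04 and 13.6 in control libraries spread far more than the counts, so this gene is uncertain.

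The theta, kappa, omega and zeta classes had negative log2 fold changes in all 6 genes with TMM scaling, but Gstt2 turned positive with library size as the only scaling (0.08), with quality weights (0.03) and without control replicate 1 (0.16, edgeR adjusted p = 0.587). These genes had control replicate 1 above every other library in 6 of 6 cases. Gstt1, which acts on small halogenated compounds, was at 181, 234 and 169.8 CPM in knockdown replicates 1 to 3, against 317, 218 and 229 CPM in control replicates 1 to 3, for a log2 fold change of -0.39 (SE 0.23, edgeR adjusted p = 0.504). The value was -0.18 without control replicate 1 (adjusted p = 0.418). Gstt3 stood at 24.6, 36.0 and 34.7 CPM in knockdown replicates 1 to 3, against 73.8, 39.0 and 32.9 CPM in control replicates 1 to 3, with a log2 fold change of -0.61 (SE 0.34, edgeR adjusted p = 0.468) and, without control replicate 1, -0.17 (adjusted p = 0.509). With the GC offset as well, the values of Gstt1 and Gstt3 were -0.39 and -0.40 (adjusted p = 0.0576 and 0.0928). Gstt2 was at 51.8 ± 11.8 CPM in knockdown livers and 58.8 ± 22.8 CPM in control livers (SD, n = 3 each), which overlapped. Gstz1, the zeta-class isomerase of tyrosine breakdown, was at 379, 484 and 407 CPM in knockdown replicates 1 to 3, against 693, 446 and 411 CPM in control replicates 1 to 3, a log2 fold change of -0.29 (SE 0.25, edgeR adjusted p = 0.663). Gsto1, the omega-class enzyme that reduces dehydroascorbate, was at 58.9, 74.2 and 59.1 CPM in knockdown replicates 1 to 3, against 132, 77.7 and 69.5 CPM in control replicates 1 to 3, a log2 fold change of -0.54 (SE 0.28, edgeR adjusted p = 0.437). In both, control replicate 1 was the highest library, and without it the value of Gsto1 was -0.19 (adjusted p = 0.343) and that of Gstz1 -0.00 (adjusted p = 0.987), and with the GC offset as well -0.35 and -0.13 (adjusted p = 0.0586 and 0.575). Gstk1, the kappa enzyme of mitochondria and peroxisomes, was at 77.1 ± 6.17 CPM in knockdown livers and 98.9 ± 17.9 CPM in control livers (SD, n = 3 each), with no overlap in CPM but an overlap in FPKM. Its log2 fold change was -0.36 with all libraries and -0.19 without control replicate 1, and neither passed (edgeR adjusted p = 0.461 and 0.285), whereas with the GC offset and without that library it fell by 0.34 (adjusted p = 0.0441).

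Microsomal GSTs are membrane proteins that also reduce lipid hydroperoxides. Mgst1 (ENSMUSG00000008540, chromosome 6, 138140316 to 138156755, plus strand) stood at 1704, 1931 and 2126 CPM in knockdown replicates 1 to 3, against 2284, 2767 and 3037 CPM in control replicates 1 to 3. The groups did not overlap, and the log2 fold change of -0.49 (SE 0.21) did not pass (edgeR adjusted p = 0.356). It fell by 0.58 without control replicate 1 (edgeR adjusted p = 0.0265), and by 0.48 with the GC offset as well (adjusted p = 0.0375). Mgst3 was at 42.4, 42.1 and 45.2 CPM in knockdown replicates 1 to 3, against 86.5, 49.4 and 45.7 CPM in control replicates 1 to 3. The gap to control replicate 3 was small, and the log2 fold change was -0.49 with all libraries (edgeR adjusted p = 0.475) and -0.12 without control replicate 1 (adjusted p = 0.473).

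UGT1A genes are counted here mainly through their own first exons. Since all share the later exons, only 39.4% to 49.7% of the exonic bases of the 4 listed genes lie outside other genes, and counts of each are a part of its reads. Ugt1a9 (ENSMUSG00000090175, chromosome 1, 88070800 to 88218997, plus strand), which glucuronidates phenols, stood at 84.6, 67.0 and 81.1 CPM in knockdown replicates 1 to 3, against 83.5, 237 and 278 CPM in control replicates 1 to 3. Control replicate 1 lay within the knockdown range, and the other controls were far above it. The log2 fold change was -1.36 (SE 0.42, edgeR adjusted p = 0.200), and without control replicate 1 Ugt1a9 fell by 1.72 (SE 0.15, edgeR adjusted p = 0.000164), with the same size and call under the GC offset. Ugt1a5 (chromosome 1, 88166012 to 88218997, plus strand), chosen after its values were seen, was at 22.7, 27.7 and 31.2 CPM in knockdown replicates 1 to 3, against 22.5, 16.1 and 15.2 CPM in control replicates 1 to 3. The lowest knockdown library was just above the highest control. Its log2 fold change was 0.60 (SE 0.24, edgeR adjusted p = 0.305), and without control replicate 1 it rose by 0.81 (SE 0.17, edgeR adjusted p = 0.00513). Ugt1a6a and Ugt1a6b, which glucuronidate small planar phenols, overlapped between groups, with log2 fold changes of -0.30 and 0.03, and -0.57 and 0.36 without control replicate 1 (edgeR adjusted p = 0.114 and 0.0617). Of the 50-base windows of Ugt1a6b, 79.6% also occur in Ugt1a6a, so the split of reads between these 2 genes is uncertain. Ugt1a1, the bilirubin enzyme at the end of the cluster and not on the list of 44, stood at 69.4, 80.9 and 60.3 CPM in knockdown replicates 1 to 3, against 190.4, 157 and 134 CPM in control replicates 1 to 3, with a log2 fold change of -1.19 (SE 0.21) just short of the threshold (edgeR adjusted p = 0.0585), and fell by 1.04 without control replicate 1 (adjusted p = 0.000948). Ugt1a5 reads per Ugt1a1 read were 0.328, 0.342 and 0.517 in knockdown replicates 1 to 3, against 0.118, 0.103 and 0.114 in control replicates 1 to 3, and here control replicate 1 was with its group. Ugt1a5 was chosen after its values were seen and Ugt1a1 had the smallest p of its list, so this gap is no separate support. Ugt1a5 reads per Ugt1a9 read overlapped, at 0.269, 0.414 and 0.384 in knockdown replicates 1 to 3, against 0.269, 0.0678 and 0.0548 in control replicates 1 to 3.

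**Figure D4:**
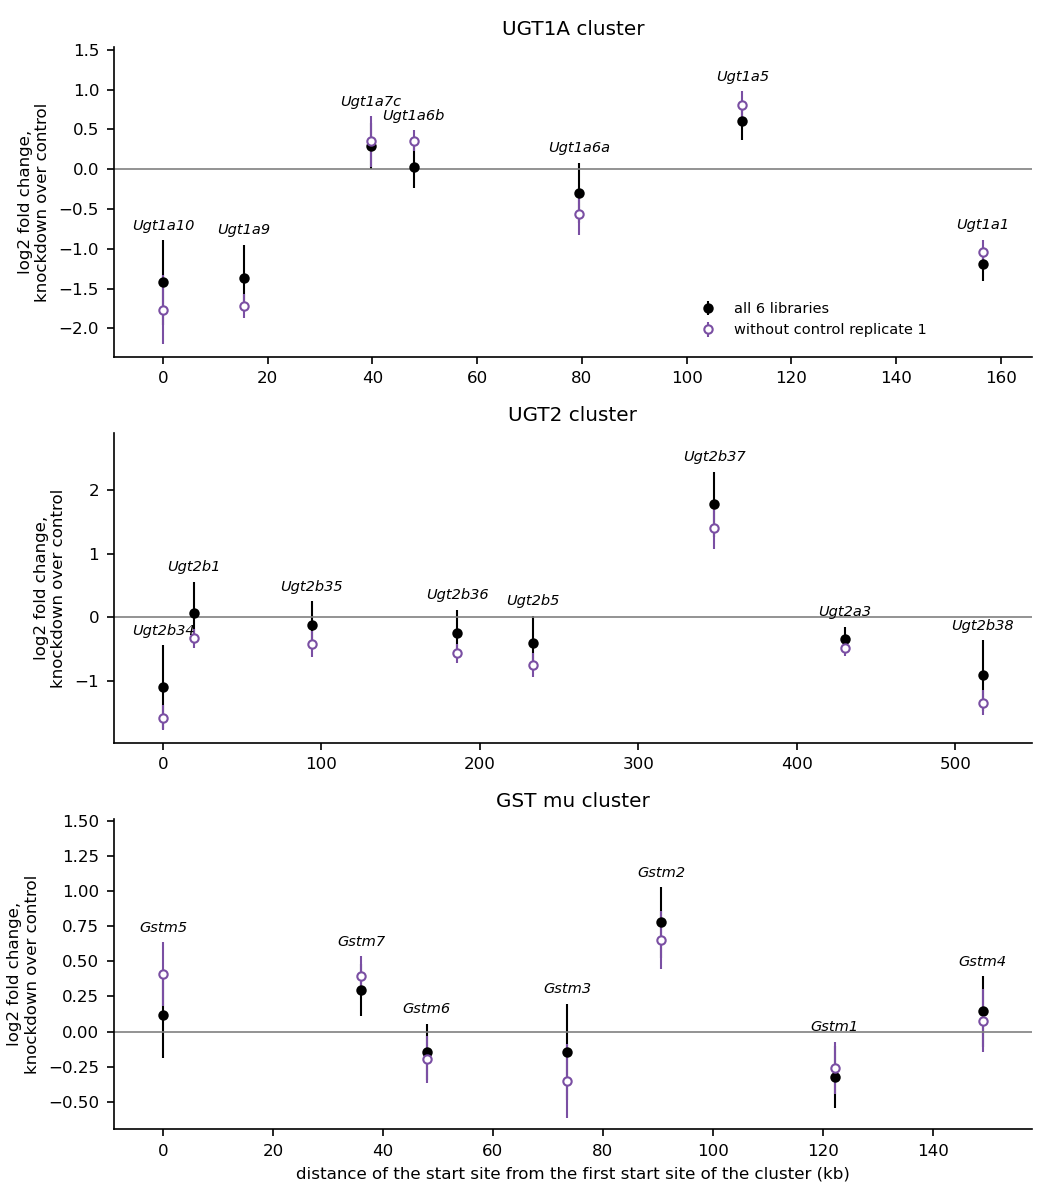
Log2 fold change, knockdown over control (edgeR, bars of 1 SE), by distance of each gene's start from the first start of its cluster, for the UGT1A, UGT2 and GST mu clusters. Filled points use all 6 libraries and open points leave out control replicate 1. Ugt1a5, Ugt2b37 and Gstm2 lie above 0 in both fits beside neighbours that lie below it.

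UGT2 enzymes glucuronidate steroids, bile acids and drugs, and 7 of the 8 listed genes had control replicate 1 below every other library. Ugt2b36 (chromosome 5, 87065927 to 87092555, minus strand), the most abundant of them, was at 559, 546 and 631 CPM in knockdown replicates 1 to 3, against 327, 875 and 858 CPM in control replicates 1 to 3. The knockdown libraries lay between control replicate 1 and the other controls, and the log2 fold change of -0.25 (SE 0.37) did not pass (edgeR adjusted p = 0.803). Without control replicate 1 it fell by 0.57 (edgeR adjusted p = 0.0171), and with the GC offset as well the value was -0.06 (adjusted p = 0.780). Ugt2b34, singled out after its values were seen, had the widest spread, at 378, 321 and 485 CPM in knockdown replicates 1 to 3, against 156, 1107 and 1283 CPM in control replicates 1 to 3. Its log2 fold change was -1.11 (SE 0.66, edgeR adjusted p = 0.508), and without control replicate 1 it fell by 1.58 (adjusted p = 0.000474) and with the GC offset by 1.14 (adjusted p = 0.00129). The low-level Ugt2b38, at 7.23 ± 0.643 CPM in knockdown livers and 13.7 ± 9.42 CPM in control livers, also had control replicate 1 lowest and the other controls above every knockdown library, as did Ugt2b5, at 524 ± 92.1 CPM in knockdown livers and 695 ± 364 CPM in control livers (SD, n = 3 each). These 2 genes share 34.8% of the windows of Ugt2b5, so the split of their reads is uncertain. Ugt2b1, Ugt2b35 and Ugt2a3 had log2 fold changes of 0.07, -0.12 and -0.35 with all libraries and -0.33, -0.43 and -0.48 without control replicate 1, of which Ugt2a3 passed (edgeR adjusted p = 0.0212). With the GC offset as well Ugt2a3 was at -0.17 (adjusted p = 0.336) and Ugt2b5 at -0.30 (adjusted p = 0.176).

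Ugt2b37 (ENSMUSG00000057425, chromosome 5, 87240493 to 87254804, minus strand) went the other way. It had 168, 107 and 137 reads in knockdown replicates 1 to 3, against 11, 34 and 49 reads in control replicates 1 to 3, or 4.07, 2.80 and 3.19 CPM against 0.364, 0.975 and 1.59 CPM. All knockdown libraries were above all controls at this low level, and the log2 fold change of 1.78 (SE 0.52) did not pass with all 6 libraries (edgeR adjusted p = 0.184). It rose by 1.41 without control replicate 1 (SE 0.34, edgeR adjusted p = 0.0109). Among its windows 18.3% occur in another gene, mostly Ugt2b5, whose own log2 fold change was -0.41. Ugt2b37 reads per Ugt2b34 read were 0.00659 to 0.0108 in knockdown libraries and 0.000880 to 0.00233 in control libraries, with no overlap. Ugt2b34 was singled out after its values were seen and Ugt2b37 had the smallest p of its family, so this is no separate support.

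UGT3 enzymes differ from the rest in that the human forms use other sugars than glucuronic acid. Ugt3a1 (ENSMUSG00000072664, chromosome 15, 9276888 to 9315032, plus strand) stood at 20.8, 22.6 and 18.2 CPM in knockdown replicates 1 to 3, against 9.24, 13.1 and 11.8 CPM in control replicates 1 to 3. The groups were well apart, and the log2 fold change was 0.85 (SE 0.22, edgeR adjusted p = 0.149). It rose by 0.73 without control replicate 1 (SE 0.15, edgeR adjusted p = 0.00561), and by 0.86 with the GC offset as well (adjusted p = 0.00437). Ugt3a2, its neighbour, was at 140.2, 162 and 139.5 CPM in knockdown replicates 1 to 3, against 138, 175 and 166 CPM in control replicates 1 to 3. These overlapped, with a log2 fold change of -0.12 (SE 0.18, edgeR adjusted p = 0.813), and -0.20 without control replicate 1 (adjusted p = 0.297). Ugt3a1 reads per Ugt3a2 read were 0.148, 0.139 and 0.130 in knockdown replicates 1 to 3, against 0.0670, 0.0748 and 0.0713 in control replicates 1 to 3, and control replicate 1 was with its group. Counts and the authors' FPKM differed here, since control replicate 3 had 11.0 FPKM of Ugt3a1 and knockdown replicate 3 had 8.80.

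Flavin-containing monooxygenases add oxygen to drugs that conjugation then clears, and Fmo5 also oxidises ketones. Fmo5 (ENSMUSG00000028088, chromosome 3, 97628804 to 97655282, plus strand) stood at 1102, 1373 and 1263 CPM in knockdown replicates 1 to 3, against 1930.2, 3016 and 3226 CPM in control replicates 1 to 3. Every knockdown library was below every control library, by a gap narrower than the range of the controls. The log2 fold change was -1.13 (SE 0.26, edgeR adjusted p = 0.112), and without control replicate 1 it fell by 1.31 (SE 0.17, edgeR adjusted p = 0.000521) and with the GC offset as well by 1.25 (adjusted p = 0.000958). Fmo1 (ENSMUSG00000040181, chromosome 1, 162829561 to 162866610, minus strand), its family's other member, added after its values were seen, was at 221, 279.5 and 239.7 CPM in knockdown replicates 1 to 3, against 378, 458 and 455 CPM in control replicates 1 to 3. The gap between the groups was wider than the range of either. Its log2 fold change was -0.80 (SE 0.19, edgeR adjusted p = 0.124), and without control replicate 1 it fell by 0.87 (SE 0.15, edgeR adjusted p = 0.00213). Both were called as lower by DESeq2 with all 6 libraries too, with adjusted p of 0.00230 for Fmo5 and 0.00333 for Fmo1. Fmo2, a neighbour of Fmo1 on chromosome 1 that is not on the list of 44, was also lower without overlap, at 16.7 ± 11.1 CPM in knockdown livers, against 97.6 ± 46.1 CPM in control livers (SD, n = 3 each), and did not pass with all 6 libraries (edgeR adjusted p = 0.0898), whereas without control replicate 1 it fell by 2.83 (adjusted p = 0.000900). Fmo4, the neighbour of Fmo1 on the other side, had positive log2 values of 0.16 (SE 0.23) and, without control replicate 1, 0.30 (SE 0.18).

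**Figure D5:**
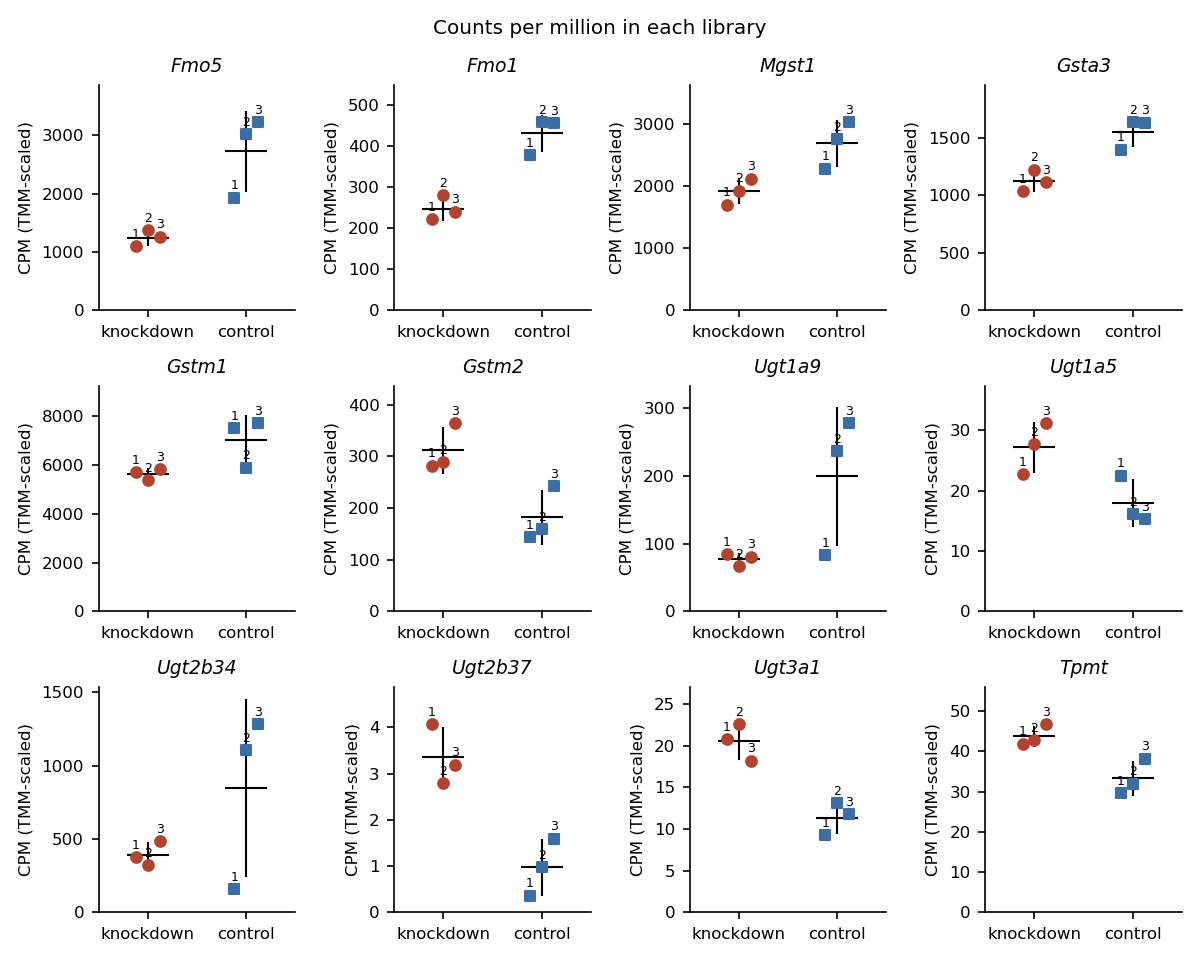
TMM-scaled CPM of 12 of the genes in each library, knockdown left of control, with replicate numbers beside the points, a bar at the mean and a line of 1 SD (n = 3). Fmo5, Fmo1, Mgst1 and Gsta3 are lower in all 3 knockdown libraries, and Gstm2, Ugt2b37, Ugt3a1 and Tpmt higher. Control replicate 1 sits within the knockdown range for Ugt1a9 and below it for Ugt2b34.

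Epoxide hydrolases open reactive epoxides with water. Ephx1, the microsomal form, was at 1059.9, 998 and 1134 CPM in knockdown replicates 1 to 3, against 1461, 1051 and 1013 CPM in control replicates 1 to 3, with a log2 fold change of -0.14 (SE 0.22, edgeR adjusted p = 0.807). Ephx2, the soluble form that acts on fatty acid epoxides, was at 346, 440.4 and 415 CPM in knockdown replicates 1 to 3, against 631, 435 and 414 CPM in control replicates 1 to 3, with a log2 fold change of -0.30 (SE 0.23, edgeR adjusted p = 0.612). In both, control replicate 1 was highest and the other libraries overlapped. Without it the log2 value of Ephx1 turned to 0.06 and that of Ephx2 was -0.07 (edgeR adjusted p = 0.796 and 0.762). Tpmt, which methylates thiopurine drugs, was at 41.9, 42.7 and 46.8 CPM in knockdown replicates 1 to 3, against 29.6, 32.0 and 38.2 CPM in control replicates 1 to 3. These did not overlap, and the log2 fold change of 0.40 (SE 0.19) did not pass with all 6 libraries (edgeR adjusted p = 0.390) or without control replicate 1 (0.34, adjusted p = 0.0807), but did so with the GC offset as well (0.48, adjusted p = 0.0148). Glyat, which joins glycine to benzoate and other acids, was at 118, 125 and 151 CPM in knockdown replicates 1 to 3, against 84.5, 154 and 164 CPM in control replicates 1 to 3, with a log2 fold change of -0.03 (SE 0.28, edgeR adjusted p = 0.972). Nat2, an arylamine acetyltransferase, and Nnmt, which methylates nicotinamide, overlapped as well, at 13.1 ± 1.57 and 72.5 ± 30.0 CPM in knockdown livers, against 10.6 ± 3.79 and 79.9 ± 52.9 CPM in control livers (SD, n = 3 each). The log2 value of Nnmt turned to 0.53 without control replicate 1, against -0.14 with all libraries, and Glyat was at -0.26 and Nat2 at 0.05 (edgeR adjusted p = 0.230, 0.213 and 0.847), while the GC offset brought Nat2 to 0.59 (adjusted p = 0.0187).

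Genes around these enzymes were read from 10 lists with 114 genes found, of which 95 could be tested. With all 6 libraries 0 passed edgeR as higher and 2 as lower, 21 had an unadjusted p under 0.05, and DESeq2 called 1 higher and 6 lower, which is 7.37%, against 6.78% of all genes. The median log2 fold change was -0.10, against -0.05 over all genes. The estrogen sulfotransferase Sult1e1 fell to 2.04, 2.74 and 2.28 CPM in knockdown replicates 1 to 3, against 21.6, 51.4 and 99.7 CPM in control replicates 1 to 3 (log2 fold change -4.61, SE 0.57, edgeR adjusted p = 0.0282). Nr1i3, which encodes the nuclear receptor CAR that induces many UGT and GST genes in liver, fell to 19.2, 24.7 and 16.7 CPM in knockdown replicates 1 to 3, against 58.2, 73.6 and 55.0 CPM in control replicates 1 to 3 (log2 fold change -1.62, SE 0.23, edgeR adjusted p = 0.0348). Control replicate 1 lay with its group for both. Sult1e1 was the call among 8 tested sulfotransferase genes and Nr1i3 the call among 16 regulators. Without control replicate 1, 11 of 96 tested genes of these lists rose and 25 fell, beside the shares of all genes given above. The 16 xenobiotic and antioxidant regulators had a median of -0.33, with 13 negative, and the 14 NRF2 target enzymes outside conjugation had a median of 0.20, with 11 positive and 0 called. Without control replicate 1, 1 regulator passed as higher and 7 as lower, with a median of -0.30, and 4 NRF2 targets passed as higher and 0 as lower, with a median of 0.33. The shares of all genes were 16.5% higher and 16.1% lower. With the GC offset as well, 0 regulators passed as higher and 9 as lower, with a median of -0.54. For NRF2 targets these were 3 and 0, with a median of 0.38, against 12.3% and 20.3% of all genes and their median of -0.11. The NRF2 targets with the smallest p were Akr1b8, an aldo-keto reductase, at 4.05 ± 0.335 CPM in knockdown livers and 2.34 ± 0.646 CPM in control livers, and G6pdx, which makes NADPH, at 10.3 ± 1.58 CPM in knockdown livers and 6.82 ± 0.818 CPM in control livers (SD, n = 3 each).

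In the supply of glutathione 0 of 16 genes passed, and those with the smallest p were Chac1, which degrades glutathione, with a log2 fold change of 2.04 (SE 0.50, edgeR adjusted p = 0.133), and Hagh, a glyoxalase, with -0.64 (SE 0.20, edgeR adjusted p = 0.214). Chac1 reached at most 1.33 CPM. In the supply and use of UDP-glucuronate 0 of 8 passed. Gulo and Rgn, which lead from glucuronate to vitamin C in mice, were at 389.7 ± 59.4 and 498 ± 45.2 CPM in knockdown livers, against 499.5 ± 90.6 and 345 ± 163 CPM in control livers (SD, n = 3 each). Of 6 tested GST-related genes outside the list 0 passed, and Clic4 and Clic1, chloride channel proteins with a GST fold, had log2 fold changes of 0.41 and 0.52 (edgeR adjusted p = 0.290 and 0.397). Of 3 tested UGT genes outside the list 0 passed, and Ugt1a10, which reached at most 1.56 CPM, had a negative value of -1.42 that missed the threshold (adjusted p = 0.282 by edgeR). Of 13 methyl, acetyl and acyl conjugation genes 0 passed, with Acsm3, an acyl-CoA synthetase, at -1.19 and Keg1, a glycine acyltransferase relative, at -0.78 (edgeR adjusted p = 0.282 and 0.354). Of 8 conjugate exporters 0 passed. Abcc2, the canalicular pump for bilirubin glucuronide and glutathione conjugates, was at 1324, 1033 and 1266 CPM in knockdown replicates 1 to 3, against 1398, 2220.2 and 1973 CPM in control replicates 1 to 3 (log2 fold change -0.63, SE 0.24, edgeR adjusted p = 0.299). Abcc5, an exporter of organic anions, was at 20.5 ± 6.60 CPM in knockdown livers and 10.8 ± 2.03 CPM in control livers (log2 fold change 0.93, SE 0.30, edgeR adjusted p = 0.219). For both exporters the groups did not overlap, and without control replicate 1 Abcc2 fell and Abcc5 rose (edgeR adjusted p = 0.00738 and 0.0109). Of the other wider-list genes named above that did not pass with all libraries, Chac1, Akr1b8, G6pdx, Clic4 and Clic1 rose and Hagh, Gulo, Ugt1a10, Acsm3 and Keg1 fell in that comparison (edgeR adjusted p between 0.000160 and 0.0404), and Rgn did not pass (adjusted p = 0.341). With the GC offset as well G6pdx and Clic4 did not pass (adjusted p = 0.122 and 0.1796) and Rgn rose by 0.54 (adjusted p = 0.0274).

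Some genes whose level differs by sex in mouse liver set control replicate 1 apart. It was below all other libraries for 7 of 13 tested male-biased genes and within them for 6, and above all others for 4 of 7 tested female-biased genes and within them for 3. Between the groups, 1 of the 13 male-biased genes passed as higher with all 6 libraries (edgeR adjusted p = 0.0402), against 0.741% of all genes. Their log2 fold changes were positive in 9 and negative in 4. Without control replicate 1, 2 passed as higher and 4 as lower, against 16.5% and 16.1% of all genes. Of the 7 female-biased genes 0 passed, with 5 negative and a median of -1.69. Without that library 0 of them passed as higher and 3 as lower. Sums of 14 male-biased genes, among them Gstp1 and Gstp2, were 5019 to 5953 CPM in knockdown libraries, against 2421 CPM in control replicate 1 and 3713 and 4604 CPM in control replicates 2 and 3, and most of this gap was Mup20. Gstp1 and Cyp2d9 were higher in control replicate 1 than in the other controls. The female-biased Cux2 stood at 2.28, 9.12 and 0.396 CPM in knockdown replicates 1 to 3, against 112, 6.91 and 0.910 CPM in control replicates 1 to 3. Xist had at most 4 reads in any library. The part of these differences in the values of the GST and UGT genes was not tested.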

How the data were processed

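Liver RNA of 6 samples, 3 with Atoh8 knockdown and 3 controls, was grouped by the labels. For each sample the authors deposited a raw count of reads in every gene, and for all samples together FPKM values, which the authors scaled for transcript length and library size. HISAT2 (2.10), HTSeq, Cufflinks (2.2.1), FastQC, Trim Galore and the build GRCm38 (mm10) are named per the submitters' processing notes, without roles. The strand setting of the counting was not stated in the labels. Lines of the count files that name no gene (2.48% to 5.66% outside genes, 4.69% to 6.87% ambiguous, 0 multiply aligned) were left out.

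After filterByExpr and TMM scaling, the counts entered a quasi-likelihood fit on group (edgeR 4.0.16, R 4.3.3), with Benjamini-Hochberg adjustment over all 13767 genes tested and calls at an adjusted p under 0.05. CPM use TMM-scaled library sizes, whose factors were 1.10, 1.04 and 1.13 for the knockdown libraries and 0.852, 0.944 and 0.965 for the controls. A floor of 3 reads equals 0.0699 to 0.0994 CPM and covers counting error only. Alternatives used DESeq2 1.42.0, limma 3.58.1, other scalings and filters, FPKM, the replicate block and each library left out. An offset for GC content and transcript length (loess span 0.3) without control replicate 1 was added after seeing the data. GENCODE M21 gave coordinates, GC content and the 50-base windows shared between genes, and promoters came from RefSeq.

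The members and gene lists were chosen with earlier results of these data known. Full values were given to the most abundant gene of each family and the one with the smallest p, and, in each wider list, to genes that passed or the 2 with the smallest p. Fmo1, Ugt1a5 and Ugt2b34 were added after their values were seen. Protein sequences were not used here. A gene of the wider lists is not reported here.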

Additional observations from a re-analysis of the deposited data

How the results depend on the processing

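Over all genes, 102 were called higher and 17 lower. Higher calls came to 235 with library size alone, 213 without a filter, 636 with DESeq2, 2576 with limma-voom quality weights, 33 with the replicate block, 318 with the GC and length offset and 1746 with that offset without control replicate 1. Lower calls came to 34, 298, 2512, 2, 301 and 2884 in the settings named after library size alone, in that order. Leaving out 1 library gave 0 to 2348 higher and 0 to 2284 lower calls, the highest without control replicate 1. Deviations of same-numbered samples correlated at 0.254, -0.0820 and 0.290, and those of the other pairs at -0.331 to 0.270. With control replicate 1 so far apart, these values cannot tell whether the numbers pair the samples. The block called 0 of the 43 genes. Of the 43, DESeq2 called 2 higher (Ugt2b37, Ugt3a1) and 3 lower (Ugt1a9, Fmo1, Fmo5), quality weights 5 and 11, the offset 1 (Ugt2b37) and 2 (Ugt1a9, Fmo5), the offset without control replicate 1 5 and 8, and leaving out 1 library 0 to 4 higher and 0 to 11 lower. Of the wider lists, 0 higher and 2 lower became 1 and 6 with DESeq2, 12 and 24 with quality weights, 4 lower without a filter, 8 lower with the offset, 10 and 30 with the offset without control replicate 1, and 0 to 11 higher and 0 to 25 lower with 1 library left out. Family medians moved to 0.0433 (GST) and 0.12 (others) with library size alone, and the median of the others ran from -0.30 to 0.00196 with 1 library left out.

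Values of single genes, which had not passed with all 6 libraries, changed sign in some settings. With library size alone these were Gsta2 (0.0433), Gsta4 (0.20), Gstm3 (0.0873), Gstm6 (0.0948), Gstt2 (0.0750), Ugt2b35 (0.10), Ugt3a2 (0.12), Ephx1 (0.12), Nnmt (0.13) and Glyat (0.19). Without a filter they were Gsta4 (0.00353) and Glyat (0.00895), with quality weights Gstt2 (0.0258), Ugt2b1 (-0.34), Ephx1 (0.0237) and Nnmt (0.44), with FPKM plus 1 Ugt1a6a (0.0137) and Nnmt (0.000634), and with FPKM plus 0.1 the same genes (0.0137 and 0.00207). The block turned Glyat (0.0178), the offset Ugt1a6b (-0.14), and the offset without control replicate 1 Gstm4 (-0.14), Ugt3a2 (0.0165), Nnmt (0.41) and Glyat (0.0298). With 1 library left out the ranges that crossed 0 were Gsta4 (-0.0822 to 0.0474), Gstm3 (-0.35 to 0.22), Gstm4 (-0.0573 to 0.34), Gstm5 (-0.10 to 0.41), Gstm6 (-0.24 to 0.00215), Gstt2 (-0.43 to 0.16), Ugt1a6a (-0.57 to 0.15), Ugt1a6b (-0.11 to 0.36), Ugt2b1 (-0.33 to 0.37), Ugt2b35 (-0.43 to 0.11), Ephx1 (-0.24 to 0.0599), Nnmt (-0.50 to 0.53) and Glyat (-0.26 to 0.13). The causes were not tested. Depth limits Mgst2, which had at most 7 reads, and Ugt2b37 and Ugt1a10, which had few.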
